A study of Danio rerio with 7 samples.

Results

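Respiratory complex I was followed through the transcripts of its subunits in gata1-positive erythroid cells of zebrafish. Members were the rows of the count table whose gene symbol begins with nduf, leaving out the ndufaf assembly factors, or with mt-nd. This gave 49 of 32105 genes, 42 encoded in the nucleus and 7 in the mitochondrial genome. The libraries came from 3 ddx41 mutant samples (replicates 2, 3 and 4) and 4 sibling samples (replicates 1, 3, 4 and 5), all at 40 hours post fertilization. The mutants carry a mutation of ddx41, which encodes a DEAD-box RNA helicase, and the siblings are the controls. The deposited counts are named gata1dsred, and the sample titles describe no reporter further. The labels give neither the allele nor the genotypes among the siblings, nor the number of embryos per library or the clutch each came from. The p-values therefore reflect the spread among these 7 samples, which may be partly technical. Total counts ran from 11814324 to 14363255 per library. Values below are CPM, a gene's reads relative to all reads of its library, on library sizes adjusted by TMM (trimmed mean of M-values), and they are listed in the replicate order just given.

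Complex I takes electrons from NADH, passes them along a chain of flavin and iron-sulfur clusters to ubiquinone, and pumps protons across the inner mitochondrial membrane. Its peripheral arm holds the N module, where NADH is oxidised, and the Q module, where ubiquinone is reduced, while the membrane arm holds the proton-pumping subunits. All of the mitochondrially encoded subunits sit in the membrane arm, and every other subunit is made in the cytosol and imported, so the complex draws on both genomes. Erythroid cells use mitochondria for haem synthesis as well as respiration and lose them as they mature in mammals, whereas circulating fish red cells retain some. The core subunits are those conserved from bacteria, and the supernumerary ones were added around them in eukaryotes.

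Mutants were set against siblings to find how the ddx41 mutation alters the erythroid transcriptome. Every complex I transcript that passed the test, from either genome, was higher in the mutants. Of the 7 mt-nd transcripts 6 rose and none fell, by edgeR's quasi-likelihood test with Benjamini-Hochberg adjustment over all 18565 genes tested at 0.05. Of the 40 nuclear members tested 14 rose, none fell and 26 did not pass. Over all genes tested 8.87% were called higher and 7.69% lower, 16.6% in either direction. DESeq2 and limma-voom also called no member lower. At an unadjusted p under 0.05 edgeR gave 24 nuclear members higher and 0 lower, where 15.9% of all genes tested were higher and 13.9% lower at that p. The median log2 fold change was 0.94 for the mt-nd genes and 0.62 for the nuclear members, beside 0.038 for all genes tested. Without ddx41 mutant replicate 2 the number of nuclear members called higher was 4, without sibling replicate 4 it was 8 and without sibling replicate 5 it was 9, while 5 mt-nd genes were called in each of those cases. Over all genes tested in those fits, 1014 of 19494, 1167 of 18322 and 1325 of 18122 were called higher. In bulk samples like these, a change in the mix of cells and a change in RNA per cell cannot be told apart.

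**Figure D1:**
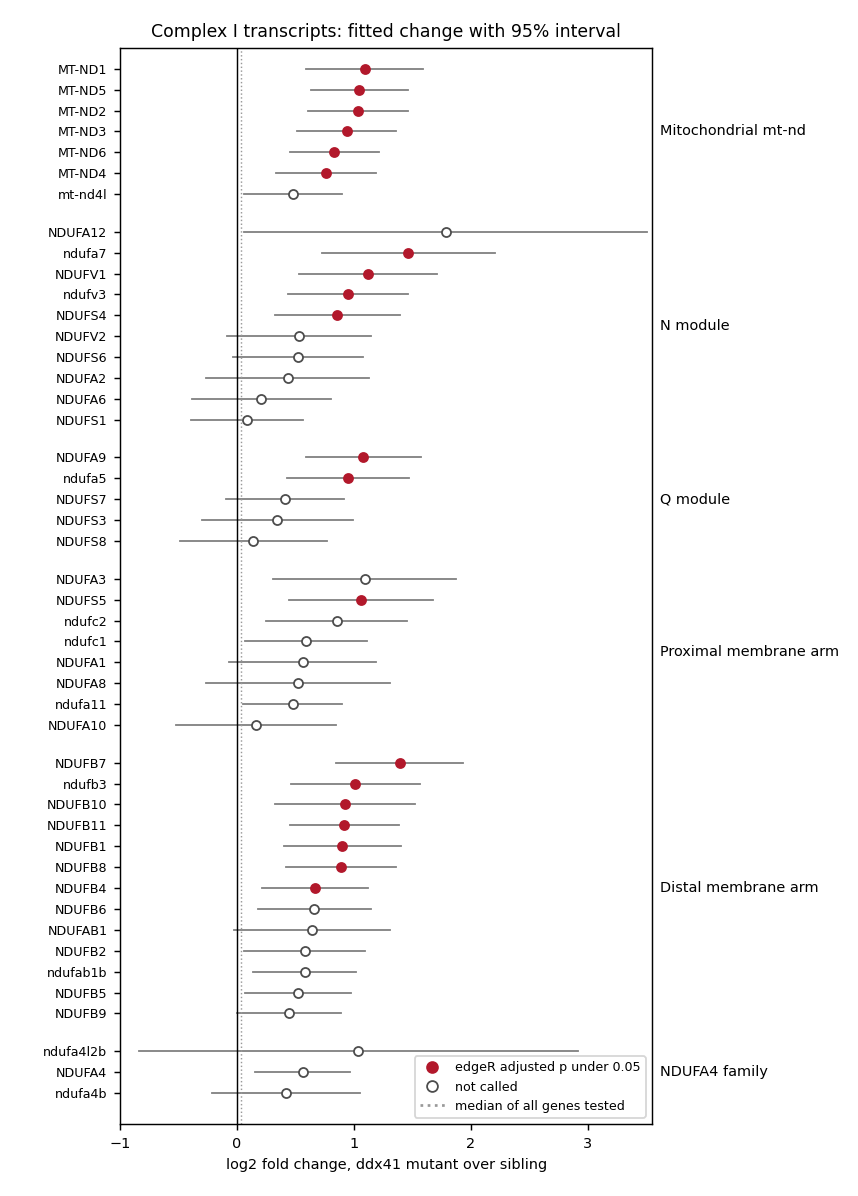
Fitted log2 fold change of ddx41 mutants over siblings (horizontal axis) for 46 of the 47 members tested, 1 row per gene, grouped by their place in the complex, with 95% intervals from the edgeR fit. Filled points are the 6 mt-nd and 14 nuclear genes called higher, and open points were not called.

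MT-ND1 (ENSDARG00000063895), the subunit at the entry of the ubiquinone channel, had 2469, 2263 and 3169 CPM in the mutants, against 841, 1135, 1413 and 1559 CPM in the siblings. Every mutant library was above every sibling, although the siblings themselves spread widely, with replicate 1 the lowest. It rose 2.13-fold (log2 fold change 1.09, SE 0.24, adjusted p = 0.00550), the largest rise of the 7. MT-ND2, MT-ND4 and MT-ND5 are the antiporter-like subunits that pump protons. MT-ND2 had 1307, 1201 and 1534 CPM in the mutants, against 521, 651, 673 and 782 CPM in the siblings. MT-ND5 had 2958, 2811 and 3609 CPM in the mutants, against 1462, 1412, 1598 and 1593 CPM in the siblings. Neither overlapped between the groups, and they rose 2.05-fold and 2.06-fold (adjusted p = 0.00261 and 0.00206). MT-ND4 had 4279.6, 3464 and 4167 CPM in the mutants, against 1984, 2463, 2400.1 and 2534 CPM in the siblings. Its groups were also separate, with the smallest of the 6 rises at 1.69-fold (adjusted p = 0.0180). That call was lost without ddx41 mutant replicate 2 (adjusted p = 0.0855) and without sibling replicate 1, 3, 4 or 5 (0.0713, 0.0708, 0.0780 and 0.0543), with log2 fold changes from 0.69 to 0.81 over the libraries left out in turn.

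MT-ND3, mt-nd4l and MT-ND6 are small membrane subunits that join the quinone site to the pumps. MT-ND3 had 166, 117 and 159 CPM in the mutants, against 59.4, 90.8, 77.9 and 79.1 CPM in the siblings. MT-ND6 had 673, 571 and 729 CPM in the mutants, against 384, 387, 358 and 349 CPM in the siblings. The groups were separate for both genes, which rose 1.92-fold and 1.78-fold (adjusted p = 0.00509 and 0.00535). For mt-nd4l the values were 661, 464 and 577 CPM in the mutants, against 418, 482, 337 and 393 CPM in the siblings. Mutant replicate 3 lay below sibling replicate 3, so the groups overlapped, and mt-nd4l did not pass the test (log2 fold change 0.48, 95% interval 0.056 to 0.90, adjusted p = 0.116). In the RefSeq annotation of another assembly, GRCz12tu, the end of ND4L overlaps ND4 and the end of ND5 overlaps ND6, which in vertebrates lies on the opposite strand. The strand setting of the counting is not stated in the labels or the table, and reads may be divided among these neighbours. In mammals the ND6 message carries little or no poly(A) tail, and these libraries were made from poly(A) RNA.

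**Figure D2:**
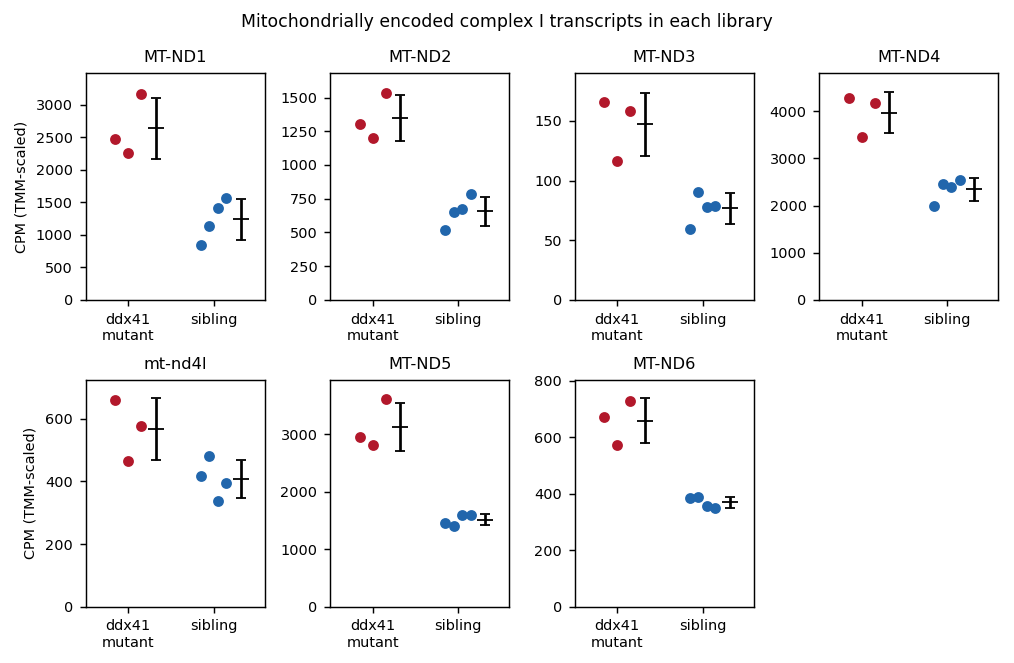
TMM-scaled CPM (vertical axes, each starting at 0) of the 7 mt-nd transcripts, 1 point per library, ddx41 mutants on the left and siblings on the right, with the mean and SD as bars. The groups are separate for every transcript but mt-nd4l, where mutant replicate 3 (464 CPM) lies below the highest sibling (482 CPM).

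The proportions among the mt-nd transcripts also varied between libraries. MT-ND1 made up 19.7, 20.8 and 22.7 percent of the mt-nd reads in the mutants, and 14.8, 17.1, 20.6 and 21.4 percent in the siblings. The groups overlapped, and sibling replicates 1 and 3 were the lowest. For mt-nd4l the share was 5.28, 4.26 and 4.13 percent in the mutants, and 7.37, 7.27, 4.92 and 5.395 percent in the siblings. Those groups overlapped as well, with sibling replicates 1 and 3 the highest. Of the reads on all 13 mitochondrial messages, the mt-nd genes took 30.8, 31.2 and 31.96 percent in the mutants and 29.8, 26.4, 28.2 and 28.8 percent in the siblings, and here every mutant was above every sibling. Beside the mt-nd genes, 4 of the other 6 mitochondrial messages were called higher and 0 lower (median log2 fold change 0.82). Over all genes tested 8.87% were called higher and 7.69% lower. MT-ATP6 of ATP synthase rose 1.75-fold and MT-CYB of complex III 1.78-fold (adjusted p = 0.0123 and 0.0184). The other called genes, MT-CO1 and mt-atp8, were 1.82-fold and 2.29-fold higher, named after their values were seen. Each of these 4 calls was lost when some single library was left out. MT-ATP6 was lost without mutant replicate 2 or sibling replicate 4 or 5, with adjusted p up to 0.0797. MT-CYB was lost without sibling replicate 1 or 3 (up to 0.0812). MT-CO1 was lost without mutant replicate 2 or sibling replicate 1, 4 or 5 (up to 0.0897), and mt-atp8 without mutant replicate 4 or sibling replicate 1 or 3 (up to 0.0911).

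Among the nuclear members, the 7 core subunits carry the flavin, the iron-sulfur clusters and the quinone site. Only NDUFV1 of these 7 passed the test. NDUFV1 (ENSDARG00000036438), which binds NADH and the flavin, had 119, 95.3 and 69.1 CPM in the mutants, against 60.3, 55.4, 28.1 and 29.8 CPM in the siblings. The groups were separate, with mutant replicate 4 and sibling replicate 1 the nearest pair, and it rose 2.18-fold (log2 fold change 1.12, SE 0.28, adjusted p = 0.0127; 0.0742 without ddx41 mutant replicate 2). Its partner NDUFV2, an iron-sulfur subunit, had 30.3, 17.4 and 15.4 CPM in the mutants, against 17.2, 18.1, 11.04 and 11.8 CPM in the siblings. Mutant replicate 2 alone was above all siblings there (log2 fold change 0.53, 95% interval -0.085 to 1.14, adjusted p = 0.237). NDUFS1, which carries most of the clusters of the N module, had 47.2, 39.5 and 33.8 CPM in the mutants, against 51.9, 35.6, 33.8 and 29.98 CPM in the siblings. The groups overlapped fully, with a sibling, replicate 1, the highest of the libraries (log2 fold change 0.084, interval -0.39 to 0.56).

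The core subunits of the Q module did not pass the test either. NDUFS7, which holds the last cluster before ubiquinone, had 47.99, 30.7 and 37.2 CPM in the mutants, against 32.7, 36.3, 26.6 and 20.5 CPM in the siblings. NDUFS8, which holds the clusters just before it, had 8.75, 7.52 and 11.9 CPM in the mutants, against 8.17, 7.36, 9.28 and 9.35 CPM in the siblings. Both overlapped between groups (log2 fold changes 0.41 and 0.14, adjusted p = 0.266 and 0.794). NDUFS3, a core subunit of the same module, had 49.2, 19.7 and 41.6 CPM in the mutants, against 41.9, 27.6, 26.5 and 19.8 CPM in the siblings. Mutant replicate 3 lay below every sibling and mutant replicate 2 above every sibling, so no difference was detectable (log2 fold change 0.35, interval -0.30 to 0.99). Over the 7 nuclear core subunits the median log2 fold change was 0.35, and over the 30 supernumerary subunits tested, of which 13 rose and none fell, it was 0.76. These 30 include NDUFA12 (log2 fold change 1.78), which reached the filter on low counts through the mutant libraries alone. Their median is lower without that gene. The share called higher among all genes tested was 8.87%, and the difference between these 2 sets was not tested.

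**Figure D3:**
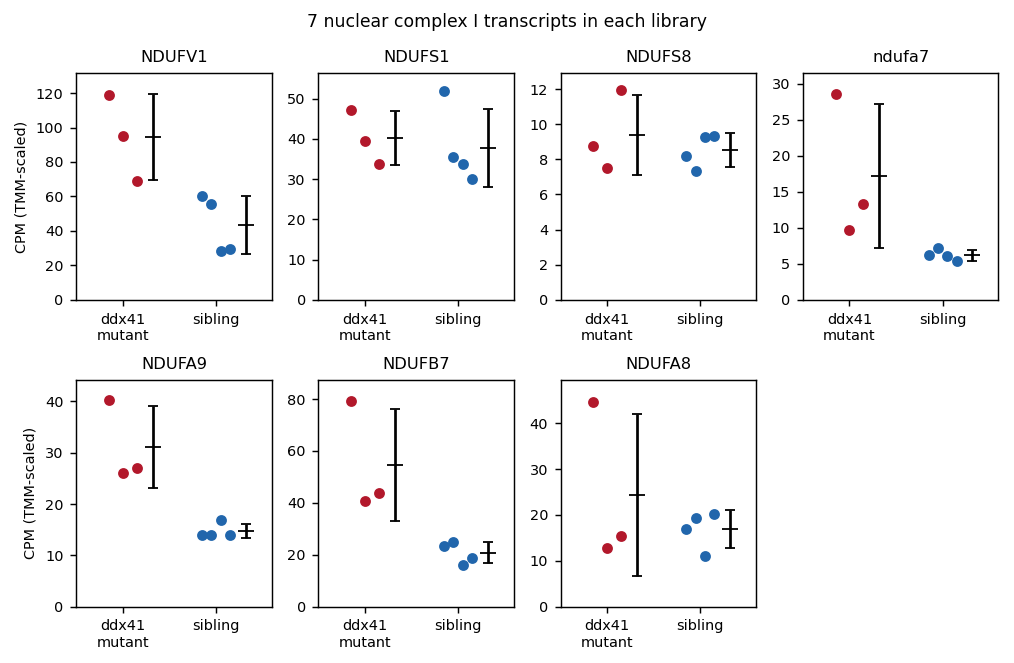
TMM-scaled CPM (vertical axes, each starting at 0) of 7 nuclear members, chosen after their values were seen to show the range of patterns, 1 point per library with the mean and SD as bars, ddx41 mutants on the left. NDUFV1, ndufa7, NDUFA9 and NDUFB7 are separate between groups, NDUFS1 and NDUFS8 overlap, and in NDUFA8 mutant replicate 2 (44.7 CPM) stands above the other 6 libraries.

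Of the supernumerary subunits of the peripheral arm, ndufa7, NDUFS4 and ndufv3 of the N module and NDUFA9 and ndufa5 of the Q module rose. The ndufa7 transcript (ENSDARG00000036684) had 28.5, 9.75 and 13.3 CPM in the mutants, against 6.23, 7.21, 6.06 and 5.35 CPM in the siblings. Its groups were separate, mutant replicate 2 was far above the other mutants, and the rise of 2.76-fold was the largest among called members (adjusted p = 0.00942; 0.122 without ddx41 mutant replicate 2). NDUFA9 (ENSDARG00000070723), which belongs to a family of dehydrogenase-like proteins and sits where the arms meet, had 40.3, 26.02 and 26.97 CPM in the mutants, against 13.99, 14.03, 16.8 and 13.99 CPM in the siblings. It rose 2.11-fold with tight siblings, and stayed called with any library left out (adjusted p = 0.00500, at most 0.0484). The ndufa5 gene rose 1.93-fold, with 20.2, 18.6 and 23.4 CPM in the mutants, against 9.97, 11.3, 12.96 and 8.71 CPM in the siblings (adjusted p = 0.0157). NDUFS4, whose loss causes Leigh syndrome in humans, rose 1.81-fold and ndufv3 1.93-fold (adjusted p = 0.0286 and 0.0148). NDUFS6, a zinc-binding subunit, did not pass (log2 fold change 0.52, interval -0.036 to 1.08), nor did NDUFA2 and NDUFA6 (adjusted p = 0.410 and 0.668). NDUFA12 had only 15, 15 and 11 counts in the mutants and 7, 4, 3 and 2 counts in the siblings. Its groups were separate, but it did not pass the test (adjusted p = 0.153).

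In the membrane arm, the distal part, built around MT-ND4 and MT-ND5, had 7 of 13 nuclear members called higher, and the proximal part 1 of 8. The share called higher among all genes tested was 8.87%. The median log2 fold changes of the 2 parts were close, 0.66 and 0.58, and every fitted change in both was above 0. The difference between the parts was not tested. NDUFB7 (ENSDARG00000033789), a subunit on the intermembrane-space side, had 79.2, 40.6 and 43.9 CPM in the mutants, against 23.3, 25.1, 16.1 and 18.6 CPM in the siblings. The lowest mutant was well above the highest sibling, and the rise was 2.62-fold (log2 fold change 1.39, SE 0.26, adjusted p = 0.00188). NDUFB11 had 34.4, 24.9 and 39.4 CPM in the mutants, against 19.1, 16.2, 17.5 and 16.9 CPM in the siblings. It rose 1.89-fold, and mutant replicate 4 was the highest, unlike in most nuclear members. The ndufb3, NDUFB10, NDUFB1 and NDUFB8 genes rose 2.02-fold, 1.896-fold, 1.87-fold and 1.85-fold (adjusted p from 0.0129 to 0.0360). NDUFB4 had 30.6, 24.6 and 24.2 CPM in the mutants, against 17.1, 16.2, 17.9 and 15.6 CPM in the siblings. Its rise of 1.58-fold was the smallest called and lay at the edge of the threshold (adjusted p = 0.0445). NDUFS5, another intermembrane-space subunit and the called gene of the proximal part, had 26.9, 18.04 and 20.2 CPM in the mutants, against 10.5, 14.8, 6.37 and 9.99 CPM in the siblings. It rose 2.09-fold (adjusted p = 0.0214).

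The other membrane-arm genes did not pass the test. NDUFA3 and ndufc2 lay just outside the threshold (log2 fold changes 1.09 and 0.85, adjusted p = 0.0541 and 0.0526). For NDUFB6, NDUFB5, ndufab1b, ndufa11 and ndufc1 the groups were separate but the adjusted p ran from 0.0611 to 0.119. NDUFAB1 and ndufab1b both encode the mitochondrial acyl carrier protein, and had log2 fold changes of 0.64 (interval -0.022 to 1.31) and 0.58 (interval 0.14 to 1.02). NDUFB2 and NDUFB9 overlapped between groups (adjusted p = 0.123 and 0.172). NDUFA8, an intermembrane-space subunit, had 44.7, 12.9 and 15.5 CPM in the mutants, against 17.03, 19.5, 11.04 and 20.1 CPM in the siblings. Mutant replicate 2 was high and the other mutants lay within the siblings, so the fitted log2 fold change of 0.52 was -0.26 without ddx41 mutant replicate 2. NDUFA10 and NDUFA1 also had 1 or more mutants within the sibling range (log2 fold changes 0.16 and 0.56, adjusted p = 0.781 and 0.219).

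The rule also takes in the NDUFA4 family, whose founding member is now placed in cytochrome c oxidase (complex IV) rather than complex I. None of its genes passed the test. NDUFA4 had 118, 102 and 108 CPM in the mutants, against 93.6, 74.1, 67.4 and 61.8 CPM in the siblings. The groups were separate and the log2 fold change was 0.56 (interval 0.16 to 0.97, adjusted p = 0.0567). Its copy ndufa4b had 7.66, 12.97 and 13.3 CPM in the mutants, against 9.55, 7.05, 8.82 and 8.49 CPM in the siblings, which overlapped. The paralog ndufa4l2b had at most 18 counts in a library, and NDUFA4L2, with at most 3 counts, and ndufa9b, with at most 12 counts, were too low to be tested. NDUFA12 reached the filter on low counts through the mutant libraries alone. The ndufa4l2b gene reached it through mutant replicates 3 and 4 together with sibling replicate 5 (18, 14 and 11 counts). The other 38 nuclear members would have passed on the siblings, and their median log2 fold change was 0.58. Without the NDUFA4 family the median of the 37 nuclear subunits tested, NDUFA12 among them, was 0.64. No gene with the symbol ndufa13 was matched.

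The groups did not overlap for 21 of the 40 nuclear members and 6 of the 7 mt-nd genes, in each case with the mutants higher. Over all genes tested 27.5% did not overlap, 14.6% with the mutants higher. The 21 include NDUFA12, which reached the filter on low counts through the mutants alone, and among the 38 nuclear members that pass it on the siblings the number was 20, with 23 higher at an unadjusted p under 0.05. All 14 called nuclear members were among the 21. Of those 14, NDUFA9, NDUFB11, NDUFB7 and ndufa5 were called with any single library left out. NDUFB8, NDUFV1, ndufa7 and ndufv3 were lost only without ddx41 mutant replicate 2 (adjusted p from 0.0742 to 0.122). The ndufb3 call was lost without that library (0.125) or sibling replicate 4 (0.0536). NDUFB1, NDUFB10 and NDUFS5 were lost without mutant replicate 2 or sibling replicate 4 or 5, with adjusted p up to 0.135, 0.248 and 0.117. NDUFS4 was lost in those cases and without sibling replicate 3 (up to 0.217), and NDUFB4 was called only without mutant replicate 4 (up to 0.202 otherwise). Among the mt-nd genes MT-ND1, MT-ND2, MT-ND3, MT-ND5 and MT-ND6 were called with any library left out.

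Within each group the ranking of the libraries differed between nuclear and mt-nd transcripts. In the mutants, replicate 2 was the highest for 34 of the 40 nuclear members and replicate 3 the lowest for 22. For the mt-nd genes mutant replicate 4 was the highest in 4 and replicate 2 in 3, and replicate 3 was the lowest in all 7. Summed over the members, nuclear transcripts reached 1751, 1139 and 1191 CPM in the mutants, against 1026, 986, 762 and 737 CPM in the siblings. Every mutant was above every sibling, but mutant replicate 3 exceeded sibling replicate 1 by little. The mean was 1360.4 ± 339 CPM in the mutants and 878 ± 149 CPM in the siblings (SD, n = 3 and 4). The summed mt-nd transcripts reached 12514, 10891 and 13944 CPM in the mutants, against 5670.4, 6621, 6857 and 7290.1 CPM in the siblings. These groups were far apart, with means of 12449.6 ± 1528 and 6609 ± 685 CPM, which is 1.88 times as much in the mutants, beside 1.55 times for the nuclear sum. Among the siblings the orders were opposite. Replicate 1 had the highest nuclear and the lowest mt-nd sum, and replicate 5 the lowest nuclear and the highest mt-nd sum.

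The nuclear and mitochondrial sums were compared by the number of mt-nd reads per nuclear read within each library, which does not depend on the scaling between libraries. This ratio is not corrected for transcript length, so its size says nothing on the level of a gene. It was 7.15, 9.56 and 11.7 in the mutants, against 5.53, 6.72, 8.99 and 9.897 in the siblings. The groups overlapped, and mutant replicate 2 lay below sibling replicates 4 and 5. On the log2 scale the ratio averaged 3.21 ± 0.358 in the mutants and 2.92 ± 0.386 in the siblings (SD, n = 3 and 4). The difference of 0.29 was smaller than either SD, so a stronger rise of the mitochondrial than of the nuclear transcripts was not separable from the spread between libraries. Leaving out mutant replicate 2 gave a difference of 0.48, against 0.12 with mutant replicate 4 left out and 0.14 without sibling replicate 1. Relative to the sibling mean of each gene, the median nuclear member stood at 0.99, 0.43 and 0.51 on the log2 scale in the mutants, and the median mt-nd gene at 0.96, 0.63 and 1.04. In mutant replicate 2 the 2 medians were close, and in replicates 3 and 4 the mt-nd median was the higher.

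**Figure D4:**
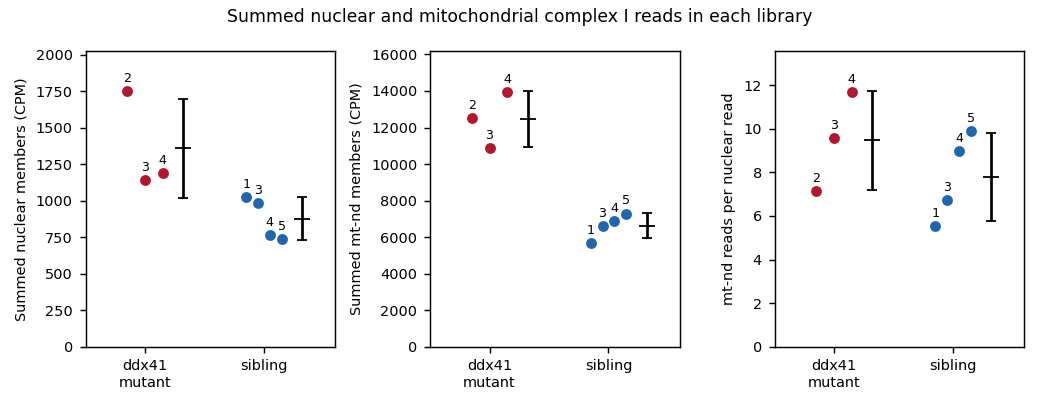
Summed nuclear members and summed mt-nd members in TMM-scaled CPM, and mt-nd reads per nuclear read, in each library (points labelled by replicate number, ddx41 mutants on the left, mean and SD as bars, axes from 0). Both sums are higher in every mutant than in any sibling, while the ratio overlaps, from 7.15 to 11.7 in the mutants and from 5.53 to 9.897 in the siblings.

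The assembly factors build complex I without being part of it. Of 16 tested, 1 rose and 1 fell (median log2 fold change -0.0023). These counts, 6.25% each, were near the shares of all genes tested, 8.87% higher and 7.69% lower. NDUFAF7, a mitochondrial methyltransferase, averaged 15.6 ± 5.34 CPM in the mutants and 6.68 ± 1.41 CPM in the siblings (SD, n = 3 and 4). It rose 2.33-fold (adjusted p = 0.0135; 0.113 without ddx41 mutant replicate 2). FOXRED1 averaged 15.2 ± 0.986 CPM in the mutants and 28.7 ± 6.95 CPM in the siblings. It fell by 0.92 on the log2 scale (adjusted p = 0.0183; 0.0530 without sibling replicate 1 and 0.0560 without sibling replicate 3). Others had few reads and wide 95% intervals. NDUFAF4 had a log2 fold change of -1.19 (-2.39 to 0.0073) and NDUFAF6 of -0.69 (-2.55 to 1.17). Without mutant replicate 4 or sibling replicate 5 the number higher was 3 in each case, and without sibling replicate 1 or 3 the number lower was 0. Over all genes tested, 1471 of 19198 and 1325 of 18122 were higher in the first 2 fits. In the other 2 fits 1048 of 18160 and 1112 of 18233 were lower. Whether the assembly factors differ from the subunits was not tested.

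The rest of the respiratory chain was counted in the same fit, where 8.87% of all genes tested were called higher and 7.69% lower. In complex II, which feeds ubiquinone beside complex I and has no mitochondrially encoded subunit, 1 of 4 genes rose and none fell. That gene, SDHC, rose 1.61-fold (adjusted p = 0.0318) and was lost without ddx41 mutant replicate 2 or 4 or sibling replicate 1, 3 or 4 (adjusted p up to 0.147) and with no filter on low counts (0.0545). Next in order of p was SDHD (log2 fold change 0.60, adjusted p = 0.0675). Of the nuclear genes of complex III, 6 of 9 were called higher and 0 lower (median log2 fold change 0.75), and the smallest p belonged to UQCRQ at 2.48-fold and UQCRH at 2.103-fold. Of those of complex IV, 10 of 17 rose and 1 fell (median 0.96), and the smallest p belonged to COX4I1 at 2.87-fold and cox6c at 2.42-fold. Of those of ATP synthase, 16 of 19 rose and none fell (median 0.91), and the smallest p belonged to atp5f1e at 2.54-fold and atp5mj at 2.38-fold. These 6 genes had adjusted p from 5.02e-05 to 0.00508. With mutant replicate 2 left out, 2 genes of complex III, 5 of complex IV and 7 of ATP synthase were called higher. Of all genes tested 1014 of 19494 were called higher in that fit. With sibling replicate 4 or sibling replicate 5 left out, 3 of complex III and 10 of ATP synthase were called higher in either case. Over all genes tested the numbers higher were then 1167 of 18322 and 1325 of 18122. The shares of complexes III, IV and V were not tested against that of complex I, 14 of 40.

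**Figure D5:**
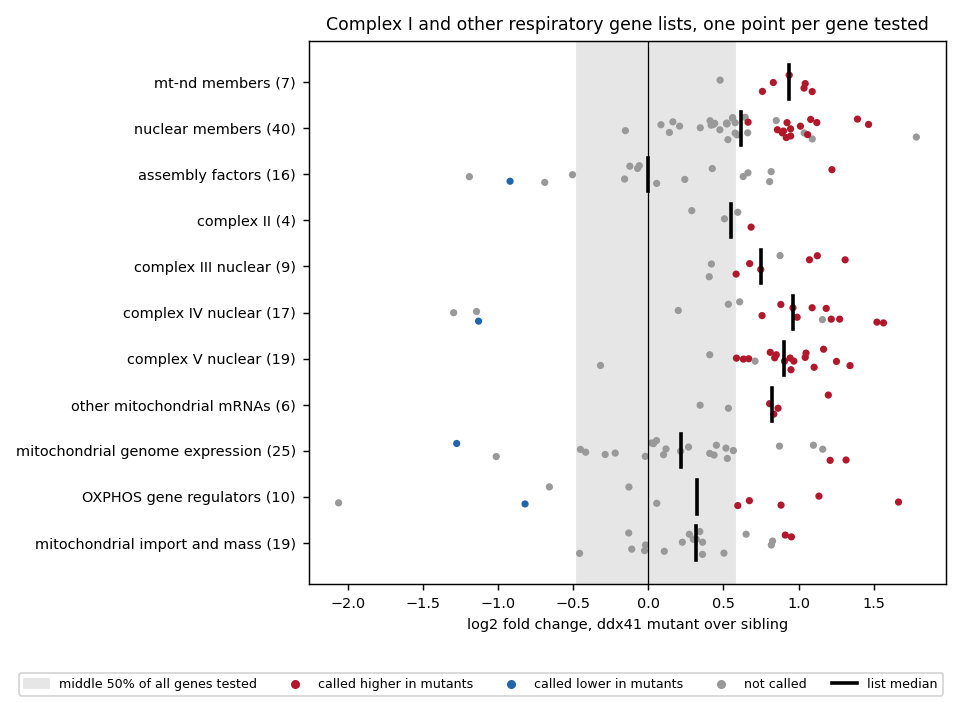
Fitted log2 fold change of ddx41 mutants over siblings (horizontal axis), 1 point per gene tested, for complex I and the other lists (number tested in brackets), with black bars at the list medians and a grey band over the middle 50% of all genes tested. The mt-nd and nuclear members have medians of 0.94 and 0.62, and the assembly factors of -0.0023.

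Of 10 regulators of respiratory genes tested, 5 were called higher and 1 lower. Over all genes tested 8.87% were called higher and 7.69% lower. The number higher was 2 with upper-quartile scaling or no filter on low counts and 3 with DESeq2 size factors or with TMM computed without mitochondrial and globin rows. It was 1 to 3 with any 1 library left out. NRF1, the nuclear respiratory factor known in mammals to bind promoters of many respiratory chain genes, averaged 29.3 ± 5.44 CPM in the mutants and 51.7 ± 1.82 CPM in the siblings (SD, n = 3 and 4). It was 1.77-fold lower (log2 fold change -0.82, SE 0.20, adjusted p = 0.0103), and stayed called with any library left out. With the replicate number as a block the NRF1 call was lost. The gabpb2a gene, for a partner of the ETS factor GABPA, averaged 35.00 ± 2.28 CPM in the mutants and 18.97 ± 3.79 CPM in the siblings and rose 1.84-fold (adjusted p = 0.0116). GABPA itself did not pass (log2 fold change -0.13, interval -0.64 to 0.39). The other 4 called genes are named after their values were seen. PPARGC1A, the coactivator PGC-1 alpha, had 3.58, 7.52 and 13.1 CPM in the mutants, against 3.32, 1.01, 3.07 and 2.78 CPM in the siblings (adjusted p = 0.0305). Its level was low and its call was lost without ddx41 mutant replicate 3 or 4 or sibling replicate 3, 4 or 5 (adjusted p up to 0.180). The ppargc1b, ESRRA and YY1 (ENSDARG00000042796, 1 of 2 IDs with that symbol) genes were 1.59-fold, 2.197-fold and 1.51-fold higher. They had adjusted p of 0.0422, 0.0426 and 0.0456, and each was called in only 1 of the 7 cases with a library left out (adjusted p up to 0.155, 0.155 and 0.184). The other YY1 ID (ENSDARG00000027978) was lower in every mutant than in any sibling. That ID did not pass the test (log2 fold change -0.66, interval -1.20 to -0.11, adjusted p = 0.0941).

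Genes that express the mitochondrial genome mostly did not pass the test, with 2 of 25 higher and 1 lower (median log2 fold change 0.22). The share higher, 8%, was near the 8.87% of all genes tested, of which 7.69% were lower. The mterf3 gene, for a repressor of mitochondrial transcription in mice, averaged 8.34 ± 1.58 CPM in the mutants and 20.2 ± 5.04 CPM in the siblings (SD, n = 3 and 4), 2.42-fold lower (adjusted p = 0.00567). The tbrg4 gene, of a family that acts on mitochondrial RNA, averaged 24.6 ± 6.64 CPM in the mutants and 10.6 ± 2.11 CPM in the siblings, 2.31-fold higher (adjusted p = 0.00589). SUPV3L1, a helicase of mitochondrial RNA decay, named after its values were seen, was 2.49-fold higher (adjusted p = 0.0107; 0.0901 without ddx41 mutant replicate 2). The transcription factor gene TFAM and the polymerase gene POLRMT did not pass, at log2 fold changes of -0.45 (interval -0.86 to -0.041) and 0.022 (interval -0.48 to 0.52). Of 19 genes of protein import and other mitochondrial membrane and matrix proteins, 2 rose and none fell (median 0.32). That share higher, 10.5%, was also near the share of all genes tested. The 2 genes were the outer-membrane channel gene VDAC1, 1.93-fold higher, and IMMT of the cristae junctions, 1.88-fold higher (adjusted p = 0.00247 and 0.00594).

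Cell identity and other cells were checked with marker lists. The shares called over all genes tested, 8.87% higher and 7.69% lower, stand beside the counts below. The erythroid markers summed to 49697 to 101943 CPM in the mutants and 105444 to 152616 CPM in the siblings, and 1 of 18 tested rose and 3 fell. That list includes globin genes, and a sum follows its most abundant members. Its smallest p belonged to SLC4A1 (ENSDARG00000024560, 1 of 2 IDs with that symbol), 3.77-fold higher, and klf17, 3.27-fold lower. The other SLC4A1 ID, ENSDARG00000012881, was not called higher. The median log2 fold change of the erythroid list was -0.44. Macrophage and leukocyte markers summed to 537 to 996 CPM in the mutants and 1019.5 to 1859 CPM in the siblings, and 2 of 22 tested rose and 7 fell. The erythroid and the macrophage sums were both lower in every mutant than in any sibling. In each list the nearest pair differed by little (101943 against 105444 CPM and 996 against 1019.5 CPM). Skeletal and heart muscle, tissues rich in mitochondria, summed to 134 to 165 CPM in the mutants and 107 to 216 CPM in the siblings, and 3 of 23 tested rose and 6 fell. Endothelial markers summed to 117 to 236 CPM in the mutants and 80.6 to 119 CPM in the siblings (2 of 11 tested rose and none fell) and epidermal markers to 816 to 1558 CPM in the mutants and 311 to 1234 CPM in the siblings (2 of 12 tested rose and none fell). Neutrophil markers summed to 1928 to 3565 CPM in the mutants and 1841 to 3345 CPM in the siblings (1 of 6 tested rose and none fell), thrombocyte markers to 357 to 460.5 CPM in the mutants and 320.3 to 401 CPM in the siblings (2 of 8 tested rose and 1 fell) and neural markers to 78.5 to 301 CPM in the mutants and 140.1 to 271 CPM in the siblings (none of 13 tested rose and 3 fell). Markers at 0 in every library were gap43 and mbpa of the neural list and 1 ID of THBS1 in the thrombocyte list. The part of other cells in the complex I levels was not tested. The level of ddx41 itself is not analysed here and gives no check of the group labels.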

How the data were processed

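Per the labels' protocols, cells positive for gata1 were isolated and their poly(A) RNA sequenced after a low-input preparation. The authors deposited raw counts per Ensembl gene, 1 column for each of the 7 libraries and 1 row for each of 32105 genes. Per the submitters' processing notes the tools included STAR 2.4.2a, Cufflinks 2.2.1, Picard, DESeq2 and Trim Galore, and the build was GRCz10. How reads were counted, with which strand setting and annotation, is not given in the sources used here.

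Ensembl IDs were given symbols from a name table, many in human style, so paralog suffixes may be lost. No table of sequences or lengths of the files' build was used, so levels are not compared between genes. Genes were kept with filterByExpr (minimum count 10, total 15), which left 18565. Mutants were compared with siblings in R 4.3.3 by the quasi-likelihood F-test of edgeR 4.0.16 after TMM scaling, with no block and Benjamini-Hochberg adjustment at 0.05. SEs and 95% intervals come from the F statistic, and folds from the fitted log2 fold changes. The mt-nd genes had 858 to 65648 counts per library and the called nuclear members at least 75. No pair of libraries within a group agreed within sampling noise (chi-square over degrees of freedom from 17.5 to 64.4).

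The members and lists were chosen with earlier results of these data known. The values of 1 nuclear member, which is in the counts and medians, are not reported here. All members may be named, and from each other list the 2 genes with the smallest p; others are marked. The alternatives were other scalings and filters, DESeq2 1.42.0, limma-voom (limma 3.58.1), each library left out, and the replicate number as a block. On simulated data over 18565 genes, 100 genes were changed 2-fold and 100 were changed 4-fold, none of them among the lowest expressed. The edgeR step recovered 34% and 94% of them, and 6.57% of its 137 calls were false. The real data gave 3073 calls, and the adjusted threshold depends on how many genes change. The simulated shares therefore do not give the share of changes recovered among the members.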

Additional observations from a re-analysis of the deposited data

Results flagged for a closer look

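Of 50 sibling groups checked, 47 members and 3 sums or ratios, 1 was flagged, where chance flags about 1 in 20. NDUFA9 had 40.3, 26.02 and 26.97 CPM in the mutants, against 13.99, 14.03, 16.8 and 13.99 CPM in the siblings. Among the siblings the gap between replicate 4 and the nearest other sibling made up 0.985 of their range, above Dixon's 95% critical value for 4 samples. All mutants lay above that sibling.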

How the results depend on the processing

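With the replicate number as a block, which leaves the contrast to numbers 3 and 4, none of the nuclear members and none of the mt-nd genes was called (0 and 0), with 4 and 1 higher at an unadjusted p under 0.05 by edgeR, the only tool run with the block (at that p 9.14% of all genes tested were higher), and 1023 genes were called over the table against 3073 without it. The blocked fit called 0 of 9 nuclear complex III genes, 2 of 17 of complex IV and 0 of 19 of ATP synthase higher. Of the other mitochondrial messages 1 of 6 was called higher, and of the regulators 1 of 10 higher and 0 lower. Over all 18565 genes tested 592 were called higher and 431 lower in that fit. Deviations from the group means did not go together in same-numbered libraries (r across genes -0.016 for number 3 and -0.16 for number 4). Differently numbered pairs ran from -0.14 to 0.24. So few same-numbered pairs cannot settle whether the numbers pair samples. The main fit treated the libraries as unpaired. In the blocked fit the sign turned for NDUFA6 (-0.15), NDUFA10 (-0.13) and NDUFA8 (-0.054), none of them called in either fit. With each library left out in turn, 4 to 16 nuclear members and 5 to 6 mt-nd genes were called higher and none lower, and 1888 to 2835 genes were called over the table. The lowest counts of nuclear members and of all genes were those without ddx41 mutant replicate 2. The log2 fold changes then ran from -0.14 to 0.44 for NDUFA6, -0.051 to 0.28 for NDUFS1, -0.071 to 0.24 for NDUFS8, -0.14 to 0.45 for NDUFA10 and -0.26 to 0.80 for NDUFA8, which are uncalled genes whose sign turned. The cause was not tested. The median log2 fold change kept its sign in each of these cases (0.52 to 0.75 for nuclear members, 0.84 to 1.04 for mt-nd genes). Under other scalings, filters, DESeq2 and limma-voom, 13 to 19 nuclear members and 6 mt-nd genes were called higher. NDUFB4 was lost with DESeq2 size factors, upper-quartile scaling, TMM without mitochondrial and globin rows, and no filter. Depth limits NDUFA12, NDUFA4L2, ndufa4l2b and ndufa9b, which had few counts.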
